A study of Mus musculus with 4 samples.

Results

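Retinoid transport and metabolism genes were described in reconstituted ovaries (rOvaries) of mice given the mTOR kinase inhibitor INK128 and of mice given none. The set held 9 genes, taken by symbol out of 54021 symbols in the count table, namely Rbp4, Stra6, Crabp1, Crabp2, Aldh1a1, Aldh1a2, Aldh1a3, Cyp26b1 and Cyp26a1. The set was chosen by a measured value, the fold change of Rbp4, which was among the largest rises with INK128 in these same libraries, and therefore the members' differences between INK128 and control are given as a description without a test. Of the 9 genes, 7 had a mean above 10 CPM (counts scaled to a fixed number of reads per library), Cyp26a1 had a mean between 1 and 10, and Crabp1 lay below 1.

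Each rOvary was a graft grown under the kidney capsule of a bilaterally ovariectomized female, from an aggregate of E12.5 primordial germ cells and the somatic cells of the same fetal female gonads, which came from C57BL/6 females crossed with C57BL/6 males carrying actin-GFP. All recipients of both groups were second-generation telomerase-deficient females (G2 Terc-/-) on a C57BL/6 background, an average of 10 weeks old at transplantation, so the host cells of every graft lacked telomerase RNA while the donor cells did not carry that deletion. The INK128 group (2 libraries, replicates 1 and 2) drank water with INK128, and the control group (2 libraries, replicates 1 and 3) drank water without it. The labels put the dose at 0.75 uM per g of body weight. The study's methods give a concentration in the water and an approximate daily dose per body weight, and neither was reconciled with the label. The grafts were collected 1 month after transplantation and sequenced as polyA RNA, and a graft held germ cells, gonadal somatic cells and whatever kidney or other host tissue came away with it.

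Retinol leaves its stores bound to the plasma carrier RBP4 and can enter cells through the membrane receptor STRA6. Inside the cell it is oxidized first to retinaldehyde and then, by the retinaldehyde dehydrogenases of the ALDH1A family, to retinoic acid, which is bound by the cellular carriers CRABP1 and CRABP2, acts through nuclear receptors in the nucleus and is broken down by the CYP26 enzymes. In the fetal gonad retinoic acid is best known as the signal that brings germ cells into meiosis, and in the testis Sertoli cells and CYP26B1 keep that signal low.

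The libraries held 19130209 to 23029089 counts, and 3 counts in a library, the level taken as the floor, corresponded to 0.13 to 0.165 CPM. The 2 INK128 libraries lay close together (Pearson r = 0.98 for log2 values of the 11758 genes whose mean CPM exceeded 10, with 1% of genes over 2-fold apart), and the 2 control libraries stood apart from each other (r = 0.806, 13.8% of genes over 2-fold apart). Control replicate 1 held 1021 counts of 4 genes of the Y chromosome (Uty, Kdm5d, Ddx3y and Eif2s3y), against 0 to 2 in the other libraries, although the donor gonads and the recipients were female, and a list of 10 Sertoli cell markers summed to 2304 CPM there, against 142 to 271 CPM elsewhere. Control replicate 3 was low in oocyte markers (65.8 CPM over 13 genes, against 898 to 1232 CPM) and high in kidney markers (1994 CPM over 20 genes, against 134 to 838 CPM). Values are therefore given per library, and fold changes also without each control library. Ovarian identity was present in all 4, with the granulosa cell factor Foxl2 at 149.6 to 381 CPM and the oocyte growth factor Gdf9 at 7.32 to 466 CPM, the lowest Gdf9 value being that of control replicate 3.

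A pair of promoters is shown because their genes sit at either end of the patterns described here, Rbp4 as the member with the largest rise and Cyp26a1 as the member found almost entirely in 1 library. Both genes lie on chromosome 19, 415.1 kb apart. The runs are the 250 bases before the RefSeq start site (GRCm38.p6), printed 5′ to 3′ on the strand of the gene, at chr19:37697558-37697807 on the plus strand for Cyp26a1 and at chr19:38124812-38125061 on the minus strand for Rbp4. Capitals mark a direct repeat of retinoic acid response half-sites in Cyp26a1 and a TATAAA box in Rbp4.
Cyp26a1: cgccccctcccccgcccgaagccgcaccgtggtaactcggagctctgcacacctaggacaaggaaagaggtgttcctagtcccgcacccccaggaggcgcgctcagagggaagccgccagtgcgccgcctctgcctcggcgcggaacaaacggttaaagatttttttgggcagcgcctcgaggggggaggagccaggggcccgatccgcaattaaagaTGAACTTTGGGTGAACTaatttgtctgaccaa
Rbp4: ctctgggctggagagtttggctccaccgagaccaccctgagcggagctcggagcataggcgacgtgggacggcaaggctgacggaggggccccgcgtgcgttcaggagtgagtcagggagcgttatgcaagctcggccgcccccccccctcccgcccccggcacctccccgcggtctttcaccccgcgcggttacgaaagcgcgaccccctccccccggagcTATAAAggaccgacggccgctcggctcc
The half-site was taken as AGGTCA, with G allowed for the first base and T for the third, and pairs in the same orientation with 1, 2 or 5 bases between them (DR1, DR2 and DR5) were searched on both strands. The Cyp26a1 match was a DR5 read on the minus strand as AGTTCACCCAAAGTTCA, from 32 to 16 bases before the start site, and its capitals therefore also hold 2 AGTTCA matches. A DR5 was found in 29 of 32851 RefSeq promoters of that length (0.0883%), a DR1 in 0.164% and a DR2 in 0.174%, whereas AGTTCA alone was in 11.8% and AGGTCA alone in 14.0%. The TATAAA of Rbp4 stood 28 to 23 bases before the start site, and 12.4% of promoters held TATAAA. RefSeq gave 12 promoter entries for 7 of the 9 members (Crabp2 and Aldh1a3 were not among them), and no other entry held AGGTCA, its form with T as the third base, or one of the direct repeats, including the second Rbp4 start site at chr19:38125322-38125571. Single half-sites beginning with G, such as GGGTCA, were not searched on their own, and entries may hold them. GC content was 70.8% in the printed Rbp4 promoter and 61.6% in that of Cyp26a1, against a median of 52.4% over all promoters. A match is a description of the letters, not evidence of binding, and the absence of a match concerns only this window.

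Rbp4, the plasma carrier of retinol, was the member that rose with INK128 by the rule's own measure. The gene lies at chr19:38116629-38125281 (minus strand, mm10 coordinates of GENCODE M21, 1343 exon bases). Its level was 19.6 and 26.7 CPM in INK128 replicates 1 and 2, and 2.96 and 2.64 CPM in control replicates 1 and 3, from 356, 566, 65 and 61 counts. Both INK128 libraries lay far above both controls, and the controls differed from each other by 1.12-fold. With INK128 the mean was 23.2 ± 5.03 CPM (SD, n = 2), in control it was 2.8 ± 0.222 CPM (SD, n = 2), and their ratio was 8.28, while the fitted log2 fold change was 3.05 (SE 0.33). This was the 7th largest of the 11758 fitted values. It was 3.13 without control replicate 1 and 2.97 without control replicate 3, and 2.35 with offsets for transcript length. In bulk tissue, fewer cells of a type and less RNA per cell cannot be told apart, for Rbp4 and for every gene described here.

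**Figure D1:**
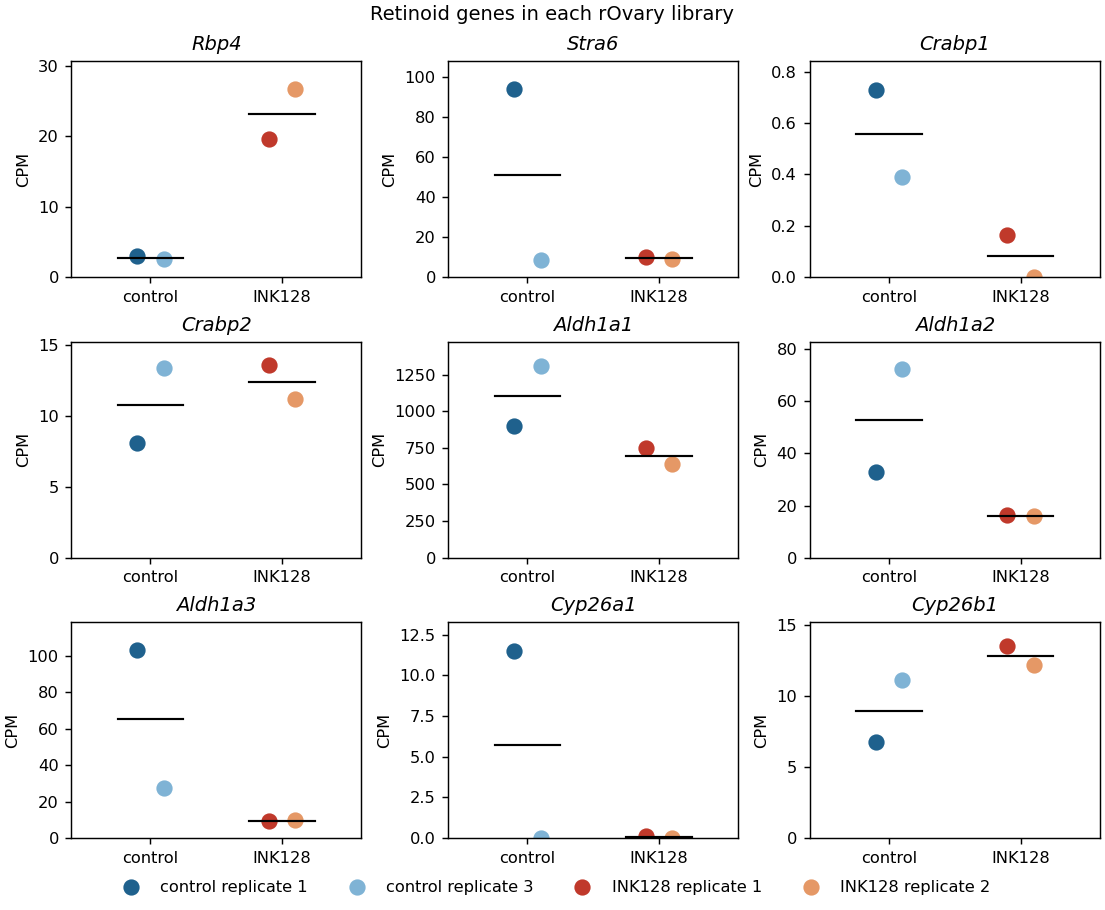
Level in CPM (linear vertical axes, each starting at 0) of the 9 retinoid genes in control replicates 1 and 3 and INK128 replicates 1 and 2, with 1 point per library and a line at the group mean. Rbp4 is at 19.6 and 26.7 CPM with INK128 against 2.96 and 2.64 CPM in control, while Stra6, Aldh1a3 and Cyp26a1 are each highest in control replicate 1.

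Hepatocytes and adipocytes are known as main sources of RBP4, and markers of both were mixed in level and direction. Of the 9 hepatocyte markers, 1 was higher and 4 were lower with INK128 without overlap between the groups, beside 34.5% and 34% of the 11758 genes, and their sums were 24.9 and 26.2 CPM with INK128 and 41.2 and 10.9 CPM in control. Only 1 of the 9 hepatocyte markers and 4 of the 9 adipocyte markers had a mean CPM above 10, as all of the 11758 genes had. Alb, the albumin gene, was at 0.276 and 0.142 CPM with INK128 and at 0.955 and 1.6 CPM in control, while Ahsg, which encodes the plasma protein fetuin-A, was the marker that was higher, at 6.62 and 8.84 CPM against 1.91 and 1.08 CPM. Of the 9 adipocyte markers, 2 were higher with INK128, 2 were lower and 5 overlapped. The 2 higher ones were the lipid droplet gene Plin1, at 33.9 and 45.8 CPM against 3 and 15.9 CPM, and the fatty acid carrier Fabp4, at 23.3 and 46.0 CPM against 5.59 and 10.3 CPM. The adipokine Adipoq, by contrast, had 0 counts in every library but control replicate 3 (0.0866 CPM), and Lep had 0 counts in all 4. The adipocyte sum was lowest in INK128 replicate 1 (65.0 CPM) and was 167 and 522 CPM in control, where Pck1, a gene also active in kidney, supplied 105.8 and 494.8 CPM. Ahsg, Plin1, Fabp4 and Pck1 were named after their values were seen, and the part of these cell types in the Rbp4 difference was not tested. Smooth muscle markers were higher in both INK128 libraries than in both controls in 9 of 9 genes (5 called higher by edgeR, beside 3.18% of all genes), with sums of 7045 and 7080.2 CPM against 955 and 1931 CPM. Oocyte markers were higher in this sense in 8 of 13 genes and lower in 0 (0 called by edgeR among the 10 with a mean CPM above 10). Theca and stroma markers were higher in 7 of 15 and lower in 1 (1 called higher). The part of these cell types in the Rbp4 difference was not tested either.

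The genes whose pattern over the 4 libraries lay nearest to that of Rbp4 were Mdk, Ccdc106, Gm2044, Slc6a2 and Angptl4, by root mean square difference of log2 CPM centred on each gene's own mean. That difference was 0.24 for Mdk, which encodes the heparin-binding growth factor midkine, and 0.366 for Angptl4, which encodes an inhibitor of lipoprotein lipase, against a median of 1.45 over 11757 genes. Mdk was at 323 and 398 CPM with INK128 and 62.0 and 71.3 CPM in control, and Angptl4 at 247 CPM in both INK128 libraries and 51.5 and 56.1 CPM in control. Of the 12 other protein-coding genes with a mean CPM above 10 that lie within 1 Mb of Rbp4, 1 was called, beside 6.37% of all 11758 genes, and it fell (Myof, log2 fold change -1.33, edgeR adjusted p = 0.0464, named after its values were seen).

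Stra6, the membrane receptor for RBP4, was set apart by 1 control library. The gene lies at chr9:58063788-58153996 (plus strand, 5829 exon bases), and its locus overlaps Ccdc33 on the other strand and Gm16131 without shared exon bases. Stra6 was at 10.2 and 9.17 CPM with INK128 and in control at 94.0 CPM (replicate 1) and 8.53 CPM (replicate 3). Control replicate 3 was below both INK128 libraries and control replicate 1 was far above them, so the groups overlapped. The log2 fold change of -2.41 (SE 1.11) became 0.18 without control replicate 1 and -3.28 without control replicate 3. Of the 11758 genes, 1.28% were at least as much higher in control replicate 1 than in control replicate 3 as Stra6, with an 11.0-fold ratio between them.

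On the scale of CPM per kb of exon, on which genes can be compared with each other, Rbp4 was 8.4 and 12.7 times Stra6 in the INK128 libraries. The same ratio was 0.137 in control replicate 1 and 1.34 in control replicate 3. The carrier was thus above its receptor in 3 libraries and below it in control replicate 1.

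Of the cytosolic carriers of retinoic acid, Crabp2 overlapped between the groups and Crabp1 was barely detected. Crabp2 (chr3:87948666-87953376, 1322 exon bases), which delivers retinoic acid to its nuclear receptors, was at 13.6 and 11.2 CPM with INK128 and at 8.1 and 13.4 CPM in control. The groups overlapped, and the log2 fold change of 0.21 (SE 0.37) was -0.11 without control replicate 1, 0.61 without control replicate 3 and -0.51 with length offsets. Crabp1 (chr9:54764748-54773110, 802 exon bases), the carrier linked to retinoic acid breakdown, had 3 and 0 counts with INK128 and 16 and 9 counts in control. All counts of Crabp1 in control were above those with INK128, and the pooled ratio of INK128 to control was 0.138 with an exact 95% interval of 0.0266 to 0.451, which covers counting error only. With a mean below 1 CPM, Crabp1 was left out of the fits of genes above 10 and above 1 CPM. In the edgeR fit of every gene with at least 1 count, its log2 fold change was -2.68 (SE 1.47) and it was not called.

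The retinaldehyde dehydrogenases, which make retinoic acid, had lower values in both INK128 libraries than in both controls in 3 of 3 genes, where 34% of the 11758 genes did, and edgeR called none of the 3. Aldh1a1 (chr19:20492715-20643465, plus strand, 4937 exon bases) was at 750.5 and 642 CPM with INK128 and at 901 and 1309 CPM in control. Its log2 fold change was -0.67 (SE 0.26), and it ran from -0.91 to -0.37 when each library was left out in turn. Aldh1a1 lay above 99.1% of the 11758 genes in mean CPM, so the groups were separated at a level where counting error is small, and the controls themselves were 1.45-fold apart. Aldh1a7, a near-identical paralog looked up for that reason, had 500 to 591 counts per library, or 1.66% to 4.35% of the counts of Aldh1a1, and how shared reads were divided between the pair is uncertain.

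Aldh1a2 (chr9:71215789-71296243, plus strand, 2264 exon bases), the dehydrogenase that supplies retinoic acid to much of the embryo, was at 16.3 and 15.8 CPM with INK128, and control replicates 1 and 3 had 32.9 and 72.5 CPM. The INK128 libraries were nearly equal and below both controls, which were 2.2-fold apart. The control mean was 3.29 times the INK128 mean, and the log2 fold change of -1.72 (SE 0.43) ran from -2.18 to -1.04 with each library left out. It was -2.18 without control replicate 1 and -1.04 without control replicate 3.

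Aldh1a3 (chr7:66390890-66427517, minus strand, 4617 exon bases), the form known from the eye and nasal region, was at 9.26 and 9.97 CPM with INK128, and control replicates 1 and 3 had 103 and 27.2 CPM. Both controls were above both INK128 libraries, and control replicate 1 was 3.8 times control replicate 3. The log2 fold change was -2.76 (SE 0.69), -1.5 without control replicate 1 and -3.42 without control replicate 3. Among the 11758 genes, 2.87% were at least that far apart between the controls in this direction.

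**Figure D2:**
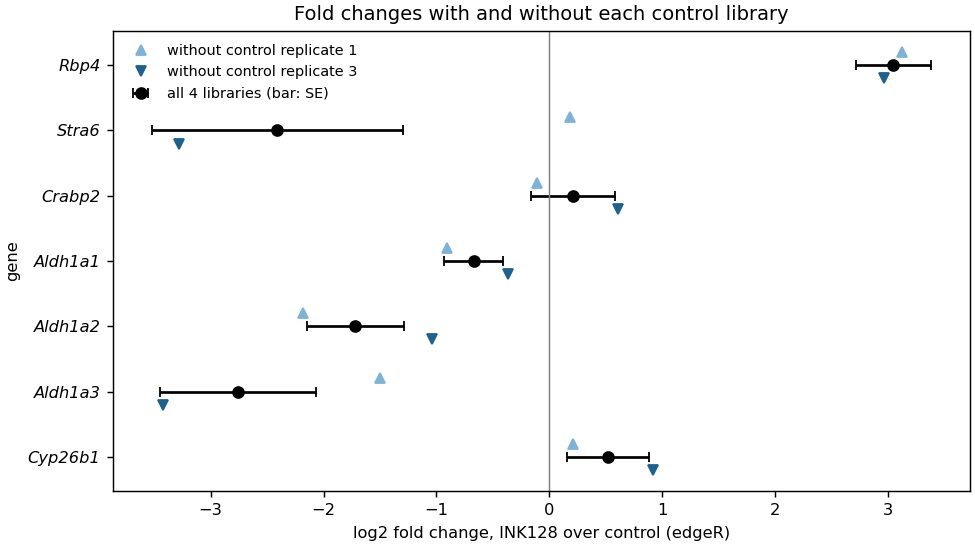
Log2 fold change of INK128 over control (horizontal axis) for the 7 retinoid genes with a mean CPM above 10, fitted with all 4 libraries (circles, bars 1 SE) and without control replicate 1 or control replicate 3 (triangles). Rbp4 stays between 2.97 and 3.13, whereas Stra6 moves from -2.41 to 0.18 when control replicate 1 is left out.

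Per length, Aldh1a1 was the main member of its family in every library, with 94.3% and 93.4% of the summed CPM per kb of the 3 genes with INK128 and 83.2% and 87.5% in control replicates 1 and 3. The rest was divided differently in the controls. In control replicate 1, Aldh1a3 took 10.2% and Aldh1a2 6.62%. In control replicate 3, Aldh1a2 took 10.6% and Aldh1a3 1.94%. Aldh1a3 was 1.54 times Aldh1a2 in control replicate 1 and 0.184 times in control replicate 3, with 0.279 and 0.31 times in the INK128 libraries. The sum of Aldh1a2 and Aldh1a3 was nevertheless alike in the controls, at 36.9 and 37.9 CPM per kb, against 9.19 and 9.13 CPM per kb with INK128. With Aldh1a1 included, the family summed to 161 and 139 CPM per kb with INK128 and to 219.5 and 303 CPM per kb in control.

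**Figure D3:**
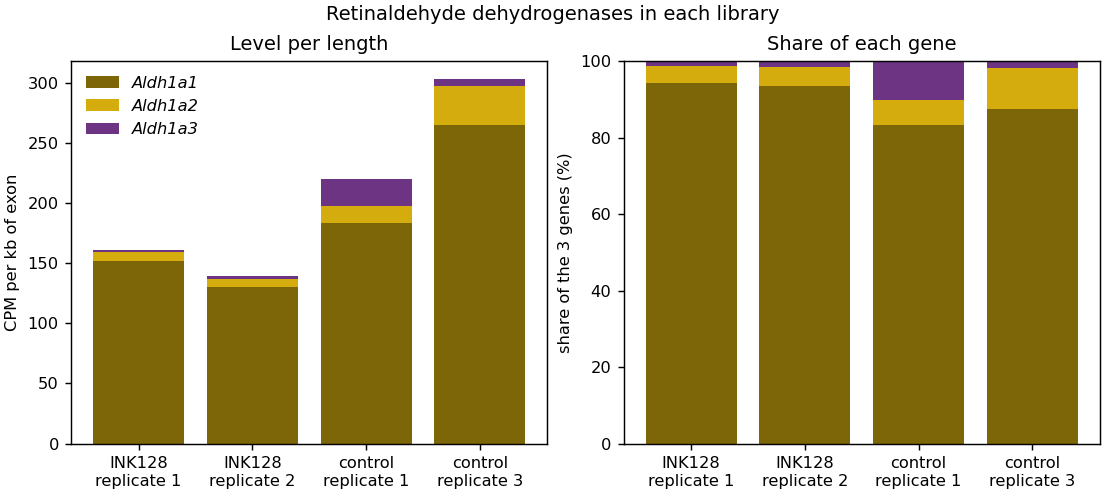
Stacked bars of Aldh1a1, Aldh1a2 and Aldh1a3 in each of the 4 libraries, as CPM per kb of exon (left) and as a percentage of their sum (right). Aldh1a1 holds 83.2% to 94.3% everywhere, and the control libraries differ in which other gene comes next, Aldh1a3 (10.2%) in replicate 1 and Aldh1a2 (10.6%) in replicate 3.

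Markers of other cell types differed between the same libraries as these genes. In what follows a marker is counted as lower where both INK128 libraries lay below both controls, as 34% of the 11758 genes did, and edgeR calls are set beside the 3.19% of those genes that were called lower. The lower counts cover all markers, but calls cover only those with a mean CPM above 10. These were 17 kidney, 5 surface epithelium and mesothelium, 7 macrophage and lymphocyte and 6 luteal markers. For endothelial, epithelial and ciliated, and Sertoli cell markers they were 8, 5 and 7. Kidney markers were lower with INK128 in 18 of 20 genes (8 called), with sums of 134 and 241 CPM against 838 and 1994 CPM, and 18 of the 20 were highest in control replicate 3, the library where Aldh1a1 and Aldh1a2 were highest too. Markers of the surface epithelium and mesothelium were lower with INK128 in 11 of 12 genes (1 called), with sums of 99.2 and 87.6 CPM against 515 and 205 CPM. Macrophage and lymphocyte markers were lower with INK128 in 9 of 12 genes (1 called), with sums of 536 and 496 CPM against 1049 and 1602 CPM and 10 of the 12 highest in control replicate 3. Luteal markers (0 called by edgeR) were highest in that library in 6 of 7 genes, with a sum of 3278 CPM against 118 to 922 CPM in the others. Endothelial markers were lower with INK128 in 4 of 9 genes (3 called), with sums of 418 and 453 CPM against 606 and 861 CPM and 7 of the 9 highest in control replicate 3. Epithelial and ciliated cell markers were lower with INK128 in 5 of 8 genes (1 called) and summed to 31.8 and 24.9 CPM against 329.6 and 159.8 CPM, with 6 of the 8 highest in control replicate 1. Sertoli cell markers (4 of 10 lower with INK128, 0 called by edgeR) were highest in control replicate 1 in 10 of 10 genes, which is also where Stra6, Aldh1a3, Crabp1 and Cyp26a1 were highest, with Sox9 at 152 CPM there against 4.55 to 6.38 CPM elsewhere. The part of these cell types in the differences of Stra6, Crabp1, the Aldh1a genes and Cyp26a1 was not tested.

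**Figure D4:**
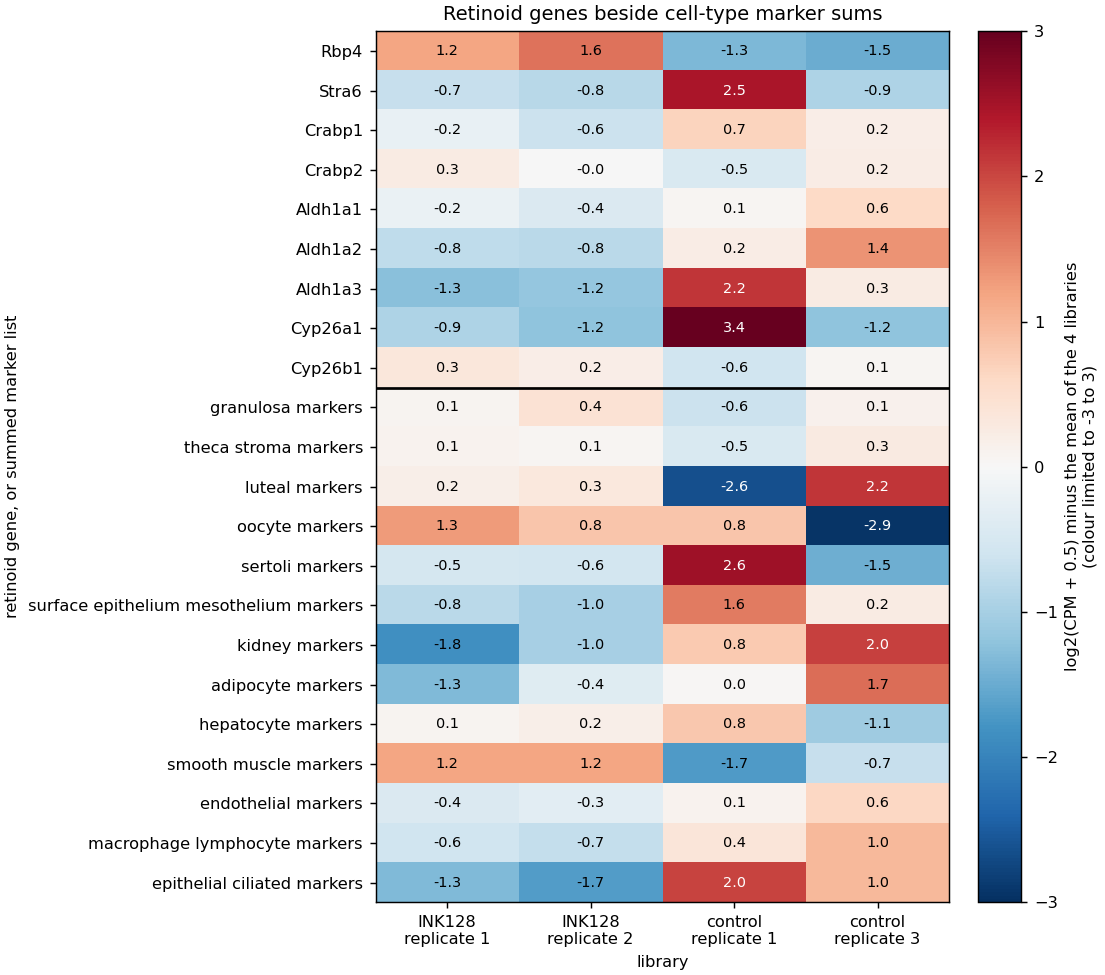
Each cell gives log2(CPM + 0.5) minus the mean of the 4 libraries, for the 9 retinoid genes (above the line) and for 13 summed cell type marker lists (below it), by library. Stra6, Aldh1a3, Cyp26a1 and the Sertoli markers are all highest in control replicate 1, while Aldh1a2 and the kidney markers are highest in control replicate 3.

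Of the enzymes that degrade retinoic acid, Cyp26b1 was measured in all 4 libraries and Cyp26a1 almost only in control replicate 1. Cyp26b1 (chr6:84571414-84593908, minus strand, 5352 exon bases), the form that keeps retinoic acid low in the fetal testis, was at 13.5 and 12.2 CPM with INK128 and at 6.78 and 11.1 CPM in control. Both INK128 libraries were above both controls, by little in the case of control replicate 3, and the log2 fold change of 0.52 (SE 0.36) ran from 0.21 to 0.92 with each library left out. Cyp26a1 (chr19:37697798-37701536, plus strand, 1983 exon bases), whose transcription is induced by retinoic acid in many cells, had 2 and 0 counts with INK128, 252 counts in control replicate 1 and 0 counts in control replicate 3. It was therefore found at 11.5 CPM in control replicate 1 and at or under the floor of 3 counts in the other libraries, control replicate 3 included, where 0 counts allows up to 0.13 CPM. No fold is given for it. Of the 11758 genes, 0.417% were as far apart between the controls in that direction on the scale of log2(CPM + 0.5). Cyp26b1 made up 97.8% and 100% of the summed Cyp26a1 and Cyp26b1 CPM per kb with INK128, 100% in control replicate 3 and 18.0% in control replicate 1.

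Ordered by CPM per kb, the 7 members with a mean CPM above 10 had the same order in both INK128 libraries, with Aldh1a1 (130.1 to 152) first, followed by Rbp4 (14.6 to 19.9), Crabp2 (8.44 to 10.3), Aldh1a2 (6.97 to 7.18), Cyp26b1 (2.29 to 2.52), Aldh1a3 (2.01 to 2.16) and Stra6 (1.57 to 1.74), and no neighbours among them overlapped. Crabp1 and Cyp26a1 came last and were tied at 0 in INK128 replicate 2. In control, Aldh1a1 was again first at 183 and 265 CPM per kb, and below it the order differed between the libraries. Aldh1a3 came next in control replicate 1 and Aldh1a2 in control replicate 3. Stra6 was above Rbp4 in control replicate 1 and below it in control replicate 3. The ranges over the controls of Aldh1a2 (14.5 to 32.0), Aldh1a3 (5.89 to 22.4) and Stra6 (1.46 to 16.1) overlapped each other, as did those of Rbp4 (1.97 to 2.2) and Cyp26b1 (1.27 to 2.08).

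Among the 7 members with a mean CPM above 10, edgeR called 1 (Rbp4, higher), the call requiring more than a 1.5-fold change with an adjusted p under 0.05, where 6.37% of the 11758 genes were called, 3.18% higher and 3.19% lower. The groups did not overlap in 5 of the 7, with Rbp4 and Cyp26b1 higher and Aldh1a1, Aldh1a2 and Aldh1a3 lower, where 68.5% of all genes did not overlap, 34.5% higher and 34% lower. DESeq2 called 4 members (Rbp4 higher and Stra6, Aldh1a2 and Aldh1a3 lower), where it called 28.6% of genes. Since the set was formed on this contrast, nothing is read from these counts. Moreover, Rbp4 and Cyp26b1 had a group mean above 10 CPM only with INK128, and Stra6 and Aldh1a3 only in control. An exact permutation test of 2 libraries against 2 cannot go below p = 0.333, and as nothing in the labels says which animals the libraries came from, p-values measure the spread between these libraries.

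The question of whether the rest of the pathway moved was addressed with a list of 67 other retinoid genes, of which 42 had a mean CPM above 10. Rdh5, Nr2f2 and Rarres2 rose and Lrp2 and Ncoa2 fell. That is 5 of 42 or 11.9%, with 7.14% higher and 4.76% lower, beside 6.37% of all genes. Their median log2 fold change was 0.01, beside -0.03 over all 11758 genes, with 22 above 0 and 20 below. The groups did not overlap in 24 of the 42 (57.1%, 9 higher and 15 lower), beside 68.5% of all genes. Among these 42 genes the count moved from 5 to 15 without control replicate 1 and to 20 without control replicate 3, in fits that called 45.8% and 42.6% of all genes, and to 0 without INK128 replicate 1 or without INK128 replicate 2. It was also 0 with limma voom, with length offsets and in the fit of all genes above 1 CPM, where no gene of the table was called and 3979, 3133 and 5797 genes had an unadjusted p below 0.05, while DESeq2 called 11 of the 42, beside 28.6% of all genes.

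In uptake and storage, 1 of the 6 genes with a mean CPM above 10 fell and 5 did not pass. Lrp2, which encodes the endocytic receptor megalin that recovers the RBP4 complex in kidney tubules, was at 3.14 and 4.25 CPM with INK128 and at 52.5 and 100.4 CPM in control (log2 fold change -4.37, SE 0.44, edgeR adjusted p = 0.0464). Lrp2 is also one of the 20 kidney markers, of which 18 were lower with INK128. Scarb1, a lipoprotein and carotenoid receptor, was at 316 and 329 CPM against 238 and 1189 CPM, with overlap and an edgeR adjusted p of 0.322. Dgat1 and Lipe, which can form and split retinyl esters, had log2 fold changes of 0.08 and 0.27 and edgeR adjusted p-values of 0.909 and 0.623.

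Of 10 retinol and retinaldehyde oxidoreductases, 1 rose and 9 did not pass. Rdh5, an 11-cis-retinol dehydrogenase known from the visual cycle, was at 84.5 and 96.1 CPM with INK128 and at 40.2 and 42.5 CPM in control (log2 fold change 1.13, SE 0.17, edgeR adjusted p = 0.0464). Both INK128 libraries were more than 1.5 times either control. Rdh10, which makes most of the retinaldehyde in the embryo, was at 18.6 and 17.8 CPM against 61.8 and 20.2 CPM in the controls, with a log2 fold change of -1.17 (edgeR adjusted p = 0.202) that was -0.15 at the smallest with a library left out. Rdh16 was at 0.937 and 1.7 CPM against 7.96 and 33.9 CPM (edgeR adjusted p = 0.0583), and the retinol-oxidizing alcohol dehydrogenase Adh1 was at 149 and 216 CPM against 70.4 and 134 CPM (edgeR adjusted p = 0.189). In the smaller group of other oxidizing enzymes neither of 2 genes passed. Aldh8a1 was at 0.386 and 1.51 CPM against 9.51 and 28.3 CPM (edgeR adjusted p = 0.0563), and Cyp1b1 had a log2 fold change of 0.18 (SE 0.21).

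**Figure D5:**
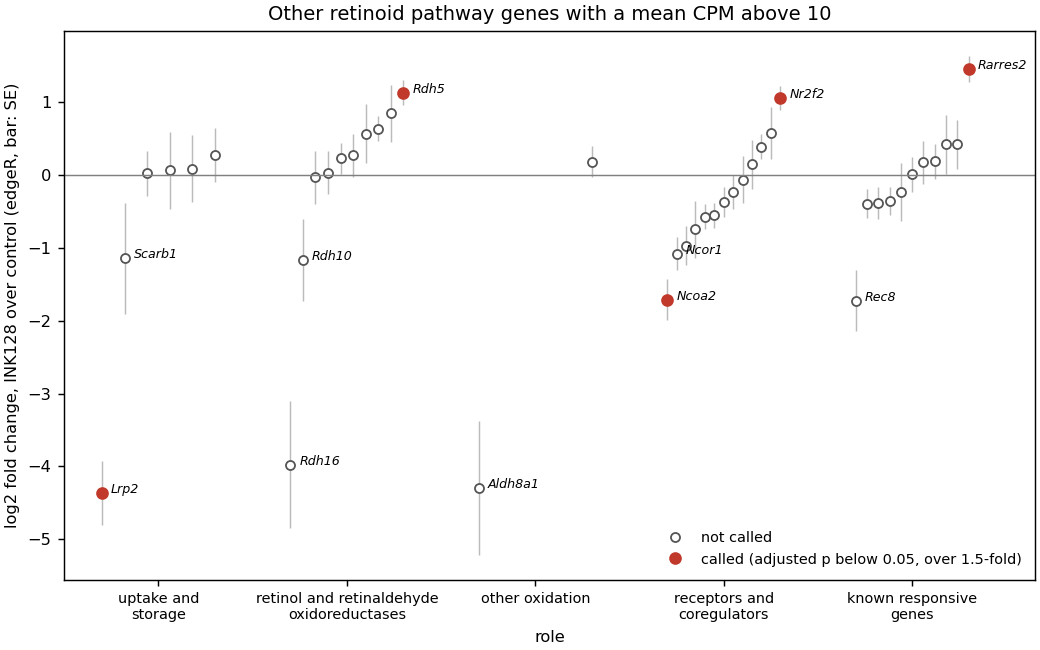
Log2 fold change of INK128 over control (vertical axis, bars 1 SE, edgeR) for the 42 other retinoid pathway genes with a mean CPM above 10, by role, with genes past the threshold filled and those over 1 in size named. The filled points are Rdh5 (1.13), Nr2f2 (1.05) and Rarres2 (1.45) above 0, and Lrp2 (-4.37) and Ncoa2 (-1.71) below.

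Among 13 receptors and coregulators, 1 rose, 1 fell and 11 did not pass. Nr2f2, which encodes the orphan nuclear receptor COUP-TFII, was at 257 and 243 CPM with INK128 and at 116 and 126 CPM in control (log2 fold change 1.05, SE 0.17, edgeR adjusted p = 0.0475), and it is 1 of 15 theca and stroma markers, 7 of which were higher with INK128 and 1 lower without overlap, beside 34.5% and 34% of all genes. With library totals in place of TMM factors the log2 fold change of Nr2f2 was 0.93 and it was no longer called (edgeR adjusted p = 0.0506). Ncoa2, a coactivator of nuclear receptors, was at 37.7 and 31.1 CPM against 137 and 88.4 CPM (log2 fold change -1.71, SE 0.28, edgeR adjusted p = 0.048). With length offsets the log2 fold change of Ncoa2 was -1.09 and that of Lrp2 was -3.66. Neither was called there, in a fit that called no gene of the table. The coactivator Ncoa1 and the corepressor Ncor1 had log2 fold changes of -0.97 and -1.08, with edgeR adjusted p-values of 0.0816 and 0.0563.

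Of 11 genes known to respond to retinoic acid, 1 rose and 10 did not pass. Rarres2, which encodes the chemoattractant and adipokine chemerin, was at 319.9 and 354 CPM with INK128 and at 126 and 121 CPM in control (log2 fold change 1.45, SE 0.18, edgeR adjusted p = 0.0464). Rec8, a meiotic cohesin, was at 4.52 and 5.39 CPM against 21.3 and 11.6 CPM (edgeR adjusted p = 0.065), whereas Stra8, the classic meiotic target of retinoic acid, had 0 counts in all 4 libraries. Rai2 had a log2 fold change of 0.42 (SE 0.33), with an edgeR adjusted p of 0.405.

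The 13 pathway genes with a mean CPM of 1 to 10 had edgeR adjusted p-values of 0.0555 to 0.967 in a fit of the 17631 genes above 1 CPM. None of them was called by edgeR, which called 0 genes in that fit (5797 had an unadjusted p below 0.05). DESeq2 called 1 of the 13 (Lrat, lower), where it called 4193 of the 17631 genes, or 23.8%. Lrat, which stores retinol as esters, had the lowest of these adjusted p-values, at 1.82 and 1.84 CPM with INK128 and 11.9 and 15.1 CPM in control. The receptor gene Rarb, which retinoic acid is known to induce, was at 0.717 and 1.18 CPM against 6.78 and 2.38 CPM in control replicates 1 and 3 (edgeR adjusted p = 0.122). Rarres1 followed Cyp26a1, at 28.4 CPM in control replicate 1 and 0 to 0.662 CPM in the other libraries, and was named after its values were seen, as were Lrat, Rarb and Stra8. The other 12 of the 67 genes had a mean CPM below 1, and 3 of them had no count in any library.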

How the data were processed

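PolyA RNA of rOvary grafts was sequenced in 4 libraries, and how many grafts went into each is not given in the sources used here. According to the study's methods and the submitters' processing notes, the authors used Trimmomatic for trimming, HISAT2 for alignment to mm10 and featureCounts for counting. Tool versions and strand setting are not given in the sources used here. The deposited values are raw counts, 1 column per library, neither normalized nor pooled by the authors, and CPM were computed here from the deposited counts with TMM factors. Of 54021 symbols, 53447 matched GENCODE M21, which gave positions and exon lengths. Depth was 19130209 to 23029089 counts per library, and intervals and the floor of 3 counts cover counting error only.

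The 2 groups came from the sample labels. The members and gene lists were chosen with earlier results of these data known. Genes with a mean CPM above 10 were fitted with the edgeR 4.0.16 quasi-likelihood F-test in R 4.3.3, with Benjamini-Hochberg adjustment over the 11758 genes, and a call needed more than a 1.5-fold change with an adjusted p under 0.05. Genes of 1 to 10 CPM came from a fit of the genes above 1 CPM. All 9 members were named, as were the called pathway genes, up to 4 pathway genes per role with the largest log2 fold changes above 10 CPM, and the 5 genes nearest Rbp4 in log2(CPM + 0.5). 1 gene that this rule names is not reported here. Alternatives were DESeq2 1.42.0, limma 3.58.1 with voom, other factors and filters, length offsets, an adjusted p below 0.1, and leaving out each library. Marker lists were summed in CPM.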

Additional observations from a re-analysis of the deposited data

How the results depend on the processing

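Of the 749 genes, 1 retinoid member and 5 other pathway genes called, the counts were 3367, 4 and 12 with DESeq2, 3105, 4 and 10 with every gene of at least 1 count, and 3131, 3 and 12 at an adjusted p below 0.1. The share of all genes called was 6.37% of 11758 in the main fit and 28.6% of 11758 with DESeq2. It was 9.86% of 31483 with every gene of at least 1 count, and 26.6% of 11758 at an adjusted p below 0.1. All 3 counts were 0 with limma voom, with genes above 1 CPM and with length offsets, where 3979, 5797 and 3133 genes had an unadjusted p below 0.05. With 1 library left out they ran from 0 to 5387, 0 to 6 and 0 to 24. They were 0 without INK128 replicate 1 and without INK128 replicate 2, with 1525 and 1338 genes at an unadjusted p below 0.05, 5387, 4 and 19 without control replicate 1, and 5011, 6 and 24 without control replicate 3. The pathway and member counts here include genes of 1 to 10 CPM, which the count over all genes with a mean CPM above 10 does not, namely Lrat in both counts of 12, 4 genes each in the 19 and 24, and Cyp26a1 in the 6. A lone library was then assumed to vary like the other group, and the cause of these shifts was not tested. Library totals gave 290 higher and 580 lower genes, against 374 and 375, with the median log2 fold change at -0.151, and upper quartile factors gave 567 higher and 396 lower, with the median at 0.033. The signs of Rbp4, Aldh1a1, Aldh1a2, Aldh1a3 and Cyp26b1 held in 12 of 12 alternatives, while Stra6 changed sign in 1 and Crabp2 in 2. The members whose sign held are those above 10 CPM whose groups did not overlap. Leaving out a library could hardly reverse them, and the other alternatives refitted the same libraries, so nothing is read from the kept signs. No paired analysis was possible because the groups share only replicate number 1. Depth limits Crabp1, and the comparison of Cyp26a1 is limited by its presence almost only in control replicate 1.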
